A study of Mus musculus with 41 samples.

Results

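The Dlx, Lhx, Irx and Nkx genes are homeobox genes that lie scattered over the mouse genome, outside the Hox clusters. They were chosen by symbol alone, as the protein-coding genes named Dlx1 to Dlx6, Lhx1 to Lhx9, Irx1 to Irx6 or Nkx followed by a family and a gene number. This rule found 34 of the 21755 protein-coding genes annotated on chromosomes 1 to 19 and X of mm10, with 6 Dlx, 8 Lhx, 6 Irx and 14 Nkx genes. The promoter of each gene was taken as 2000 bp on each side of every annotated transcription start site (TSS), and a gene was called for a mark when a peak of that mark overlapped this window by at least 1 bp.

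All 4 families encode transcription factors that bind DNA through a homeodomain. Dlx factors pattern the forebrain, the jaws and the limbs, Lhx factors carry LIM domains beside the homeodomain and specify neurons and organ primordia, Irx (Iroquois) factors act in the heart, the neural tube and the limbs, and Nkx factors specify organs such as the heart, the thyroid, the pancreas and the ventral neural tube. Polycomb repressive complex 2 writes H3K27me3, a mark of silenced developmental genes, and it often spreads over many kilobases around CpG-rich promoters of such factors. Promoters that carry H3K27me3 together with H3K4me3, the mark of CpG-rich and active promoters, are known from embryonic stem cells as bivalent, while H3K27ac and lactylation of lysine 18 of histone H3 (H3K18la) are found at active promoters and enhancers.

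The marks were profiled by CUT&Tag, where antibody-bound transposase cuts and tags the DNA beside a histone mark. All samples were labelled as untreated controls, and the labels gave 41 samples in 24 groups of 1 cell type and 1 mark. Embryonic stem cells of the line E14 were grown in serum-lif (mESC-ser) or 2i-lif medium (mESC-2i), the latter adding inhibitors of differentiation signals. All other samples were labelled with the strain C57BL/6. They were primary myoblasts (MB), multinucleated myotubes differentiated from myoblasts (MT), whole gastrocnemius muscle (GAS), macrophages grown from bone marrow with M-CSF (BMDM), macrophages sorted from muscle after ischemia by the surface markers CD45, CD11b, F4/80 and CD64 (PIM), and nuclei of white adipocytes that were pulled from epididymal fat of AdipoCre-NuTRAP females on streptavidin beads (ADIPO). GAS holds all cell types of the muscle, the myogenic cells were labelled as primary cultures, and each stem cell state was a single line. Whole cells were used for the stem cells and nuclei for all others, a difference that cannot be told apart from that between stem cells and the rest.

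The 12 H3K27me3 samples covered 7 cell types, the 8 H3K4me3 samples 4, the 7 H3K27ac samples 5 and the 14 H3K18la samples 8. The replicates of a group had been pooled into 1 peak list before deposition, so no value below has a replicate error and no test between cell types was possible. In 7 of the 24 groups the list came from 1 sample, namely all MB and BMDM lists and the H3K27ac lists of mESC-ser and PIM. Differences between lists are given as values, beside the percentage of all protein-coding genes called in the same list. The 7 H3K27me3 lists held 11768 to 36400 peaks over 54.8 to 173 Mb, with the fewest bases in MB and the most in MT, and their summed in-peak coverage (bases times overlapping fragments) ranged from 527 to 3083 Mb. The markers of each labelled cell type were checked for promoter H3K18la. All 6 stem cell markers had promoter H3K18la in both stem cell lists and 0 of 6 in the other 6 lists. Of 7 muscle markers 7 were called in MT, 6 in GAS and 4 in MB. All 7 macrophage markers were called in BMDM and PIM and all 6 adipocyte markers in ADIPO. Markers of other cell types were called too. GAS had H3K18la at 4 of 4 endothelial, 4 of 4 fibroblast, 2 of 7 macrophage and 2 of 6 adipocyte markers, with 36.1% of all genes called in that list. ADIPO had it at 3 of 4 fibroblast, 3 of 7 macrophage, 2 of 7 muscle and 2 of 3 Schwann cell markers (44.7% of all genes), and MT at 3 of 7 macrophage and 2 of 4 fibroblast markers (34.8%). PIM had it at 3 of 6 adipocyte, 2 of 4 endothelial, 2 of 3 neutrophil and 2 of 3 T cell markers (37.8%), and BMDM at 2 of 6 adipocyte, 2 of 4 endothelial and 2 of 3 T cell markers (18.5%). In mESC-2i 2 of 3 T cell markers were called (37.8%), and counts of 1 marker are left out here. The part of such cells in the values below was not tested.

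The promoters of the 34 genes were rich in CpG dinucleotides. A CpG-rich stretch, defined as 200 bp that held 50% or more G and C and reached 0.6 times the CpG number given by base composition, was found in the promoter windows of 33 of the 34 genes and of 76.4% of all protein-coding genes, and Nkx6-3 was the exception. RefSeq promoter sequence was given for 23 of the 34 genes. In the 250 bases before the start nearest the gene's 5′ end, these held a median of 19 CG dinucleotides, from 4 in Lhx8 and Lhx9 to 33 in Nkx2-4. The median over all 32851 windows of the same length was 6. Those 32851 windows come from 27025 gene symbols, some with several windows, a wider set than the 21755 protein-coding genes. The homeodomain core TAATTA, which reads the same on both strands, was found in 0 of these 23 windows and in 4.84% of all windows. The Nkx core AAGTG, searched on both strands, was found in 10 of the 23 windows (43.5%) and in 40.7% of all windows.

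Promoter sequences are printed from RefSeq (GRCm38.p6), 5′ to 3′ on the strand of the gene, with every CG dinucleotide in capitals. Irx4, Lhx4 and Nkx2-5 are shown because they had H3K27me3 in all 7 cell types and, among the genes of their family with a sequence, the largest median width over the 7 lists. No sequence was given for Dlx5, the widest Dlx gene, or for Irx5, and those of Irx3 and Dlx1 fell in annotated exons. Dlx2 and Nkx6-2 were added after their values had been seen, as 2 promoters that also carried H3K18la. Bases annotated as exon were left out. The Irx4 stretch lies at chr13:73260247-73260478 on the plus strand, and ends at the 5′ end of the gene. The Lhx4 stretch lies at chr1:155742028-155742277 on the minus strand, before a start site 9657 bp downstream of the gene's 5′ end. The Nkx2-5 stretch lies at chr17:26841609-26841815 on the minus strand, before a start site 3444 bp downstream of the gene's 5′ end. The Dlx2 stretch, chr2:71546755-71547004 on the minus strand, and the Nkx6-2 stretch, chr7:139582798-139583047 on the minus strand, end at the 5′ end of the gene.
Irx4: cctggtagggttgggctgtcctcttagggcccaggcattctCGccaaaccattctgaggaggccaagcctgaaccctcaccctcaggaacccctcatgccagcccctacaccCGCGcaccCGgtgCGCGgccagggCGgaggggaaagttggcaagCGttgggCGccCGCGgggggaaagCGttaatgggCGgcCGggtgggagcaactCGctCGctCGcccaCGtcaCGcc
Lhx4: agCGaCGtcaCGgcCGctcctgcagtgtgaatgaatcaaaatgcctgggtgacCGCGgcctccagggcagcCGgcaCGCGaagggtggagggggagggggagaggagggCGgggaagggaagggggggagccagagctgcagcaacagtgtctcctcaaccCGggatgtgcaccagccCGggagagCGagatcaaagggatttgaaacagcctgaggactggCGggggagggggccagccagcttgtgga
Nkx2-5: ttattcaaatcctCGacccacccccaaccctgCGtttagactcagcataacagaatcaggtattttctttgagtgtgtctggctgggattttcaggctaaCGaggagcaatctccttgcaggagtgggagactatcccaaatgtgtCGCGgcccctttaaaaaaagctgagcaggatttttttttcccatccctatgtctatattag
Dlx2: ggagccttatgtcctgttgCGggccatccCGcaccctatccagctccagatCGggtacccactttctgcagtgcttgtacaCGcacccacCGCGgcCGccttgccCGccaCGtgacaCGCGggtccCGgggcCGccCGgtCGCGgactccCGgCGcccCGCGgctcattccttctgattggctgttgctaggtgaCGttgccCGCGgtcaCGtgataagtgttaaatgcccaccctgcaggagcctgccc
Nkx6-2: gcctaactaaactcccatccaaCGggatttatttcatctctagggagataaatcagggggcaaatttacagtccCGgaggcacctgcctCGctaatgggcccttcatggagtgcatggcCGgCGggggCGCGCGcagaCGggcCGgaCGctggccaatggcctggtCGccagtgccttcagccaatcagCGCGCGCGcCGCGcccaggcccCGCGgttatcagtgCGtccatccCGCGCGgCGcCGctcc
These stretches held 19, 14, 5, 24 and 26 CG dinucleotides in the order printed. The Lhx4 and Nkx2-5 stretches lay wholly under an H3K27me3 peak in 7 of 7 lists and the Irx4 stretch in 4 of 7 (mESC-ser, mESC-2i, BMDM and PIM). The Dlx2 stretch lay under H3K27me3 in 5 lists, and in MB, where it had none, it lay under an H3K18la peak. The Nkx6-2 stretch lay under both H3K27me3 and H3K18la in mESC-ser.

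H3K27me3 was called at 91.2 to 100% of these promoters in 5 of the 7 cell types profiled, at 76.5% in MT and at 64.7% in MB. Over the 7 lists, 213 of 238 possible calls were made, 89.5%, beside a mean of 21.7% over all protein-coding genes. All 34 genes were called in mESC-ser (5883 of all 21755 genes, 27%), in BMDM (19.2%) and in PIM (26.4%), 32 were called in GAS (23.9%), 31 in mESC-2i (22.5%), 26 in MT (20.1%) and 22 in MB (12.5%). Among the 16631 genes with a CpG-rich promoter, the percentage called ranged from 14.1% in MB to 32.4% in mESC-ser. In a pooled population, fewer marked cells and less of the mark per cell cannot be told apart.

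**Figure D1:**
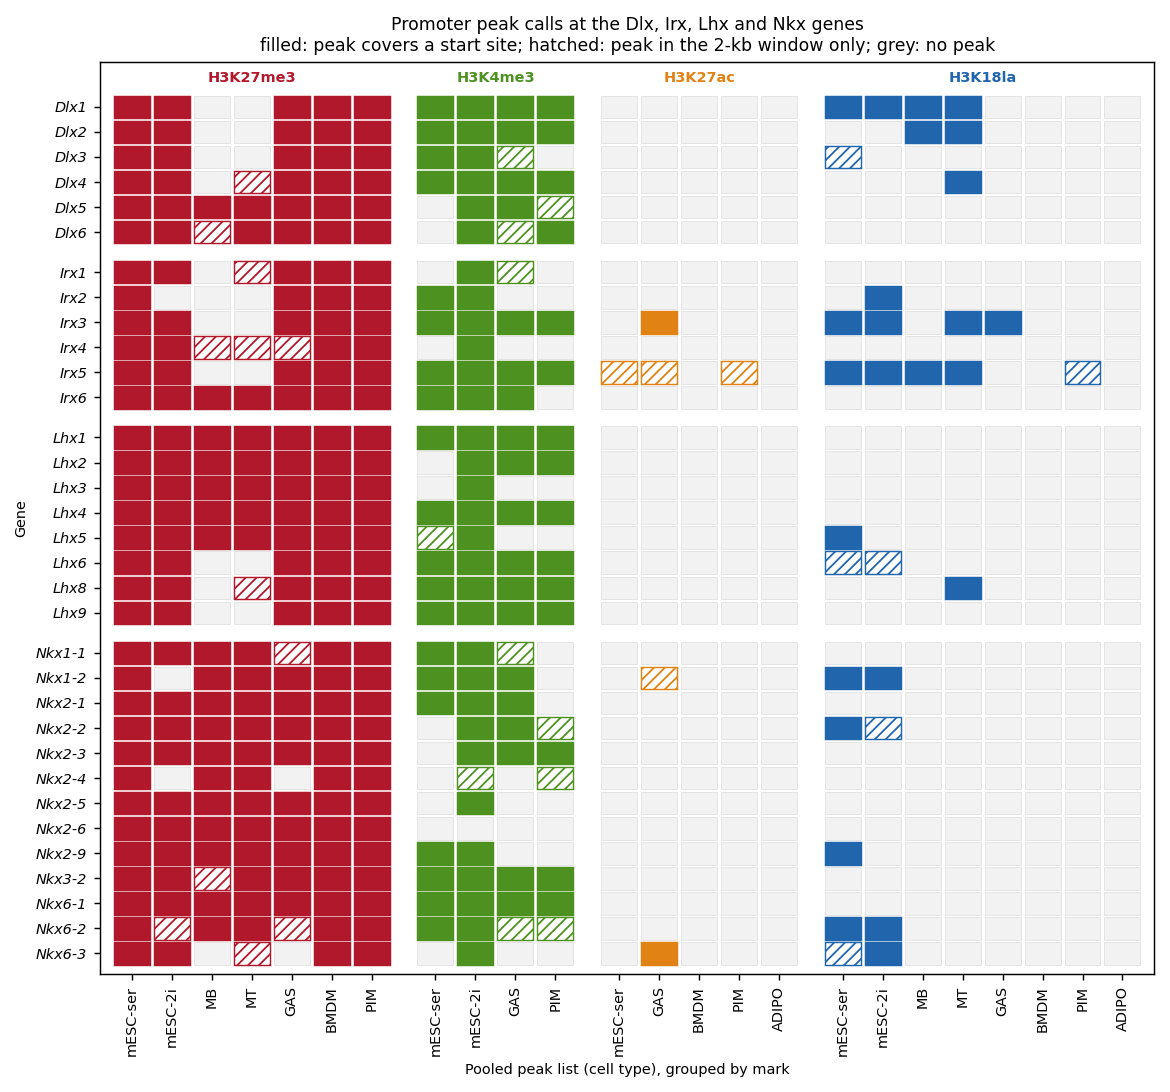
Promoter peak calls of 33 of the 34 genes (rows, by family) in the 24 pooled lists (columns, by mark and cell type). Filled squares are peaks that cover a start site, hatched squares are peaks within the 2-kb window that cover none, and grey squares are uncalled. The H3K27me3 block is nearly full apart from MB and MT, and the H3K27ac block holds 6 squares.

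Called in all 7 H3K27me3 lists were 20 of the 34 genes, beside 5.24% of all protein-coding genes, and no gene was called in fewer than 4 lists, while 53.9% of all genes were called in 0. Among the 20 were Dlx5 and Dlx6, Irx4 and Irx6, Lhx1 to Lhx5, and Nkx1-1, Nkx2-1, Nkx2-2, Nkx2-3, Nkx2-5, Nkx2-6, Nkx2-9, Nkx3-2, Nkx6-1 and Nkx6-2. They include the pituitary and motor neuron factors Lhx3 and Lhx4, the heart factor Nkx2-5, the thyroid and lung factor Nkx2-1 and the skeletal factor Nkx3-2. By family, H3K27me3 filled 93 of 98 possible calls (94.9%) at Nkx, 51 of 56 (91.1%) at Lhx, 35 of 42 (83.3%) at Dlx and 34 of 42 (81.0%) at Irx genes.

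Of the 25 gene and list pairs without a call, 20 were in the cultured muscle cells. Dlx1, Dlx2, Dlx3, Irx2, Irx3, Irx5, Lhx6 and Lhx9 were uncalled in both MB and MT, and Dlx4, Irx1, Lhx8 and Nkx6-3 were uncalled in MB and called in MT. Over all genes, 8.42% were called in MT and not in MB. No homeobox gene was called in MB and not in MT, beside 0.850% of all genes. The MB list covered the fewest bases of the 7 and came from 1 sample. For Dlx1, which drives forebrain interneuron development together with Dlx2, the nearest H3K27me3 peak lay 335 kb from the 5′ end in MB and 63.4 kb in MT. At Dlx3, a factor of skin and placenta, these distances were 257 and 17.5 kb, and at Lhx9, a factor of the early gonad, 63.7 and 60.7 kb. Other uncalled promoters had a peak close by. At Irx3 a peak began 2.49 kb from the 5′ end in MB and 4.40 kb in MT, and H3K27me3 covered 57.6 kb of the 100 kb around the gene start in MT. At Irx2 the nearest MT peak lay 3.56 kb away, and at Lhx6 2.37 kb away. Altogether 7 of the 25 uncalled promoters had an H3K27me3 peak within 5 kb and 14 had none within 50 kb. In whole GAS muscle, where 23.9% of all genes were called, all 8 genes that were uncalled in both cultures were called. The share of all genes uncalled in both cultures and called in GAS was not computed.

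Outside the muscle cultures, only 5 calls were missing. In mESC-2i these were Irx2, with a peak 3.69 kb away, Nkx1-2, a factor of the posterior growth zone, with the nearest peak 51.8 kb away, and Nkx2-4, a relative of Nkx2-1, with the nearest 87.5 kb away. In GAS they were Nkx2-4, with a peak 2.67 kb away, and Nkx6-3, a factor of the stomach epithelium, with a peak 7.82 kb away.

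**Figure D2:**
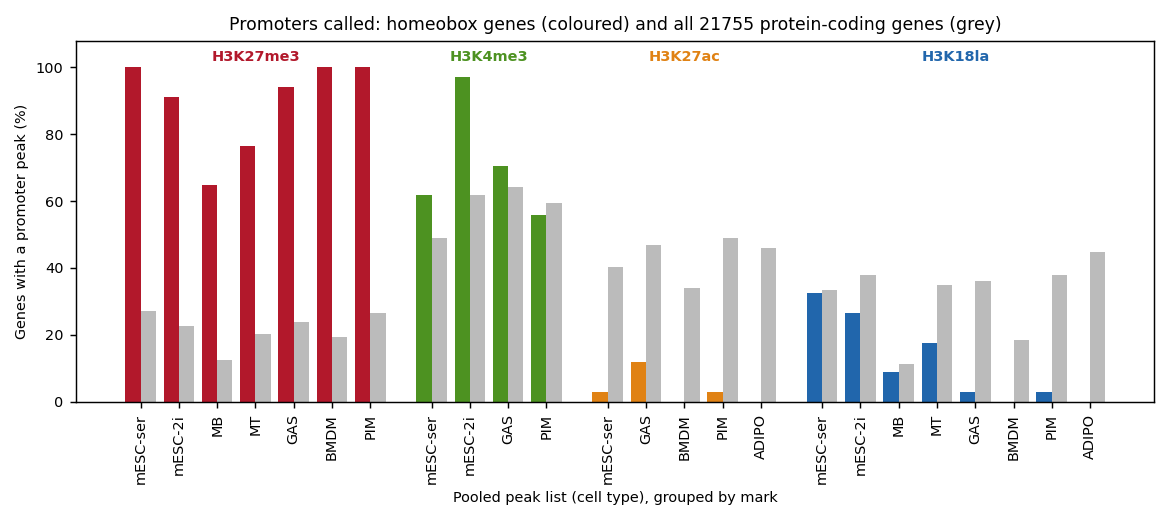
Percentage of genes with a promoter peak in each of the 24 lists, for the 34 homeobox genes (coloured bars) and for all protein-coding genes (grey bars), with the axis starting at 0. For H3K27me3 the coloured bars reach 64.7 to 100% and the grey bars 12.5 to 27%, for H3K4me3 both lie between 48.8 and 97.1%, and for H3K27ac the coloured bars stay at or below 11.8%.

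The H3K27me3 peaks at these promoters were broad. Among the called genes the median width of the widest promoter peak was 15.6 kb in mESC-ser, 12.8 kb in mESC-2i, 15.6 kb in MB, 41.7 kb in MT, 16.2 kb in GAS, 25.9 kb in BMDM and 22.2 kb in PIM. Over all called protein-coding genes these medians were 4.8, 6.4, 4.7, 11.6, 4.4, 9.0 and 7.4 kb. The median over the 7 lists was 16.2 kb for the homeobox genes and 6.4 kb for all called genes. Ranked by width among all called genes of a list, the median homeobox gene stood at percentile 91.6 in mESC-ser, 77.9 in mESC-2i, 92.3 in MB, 91.4 in MT, 94.5 in GAS, 85.3 in BMDM and 90.5 in PIM. The mESC-2i value was the lowest, and 7 of its 31 called genes stood above percentile 90, against 20 of 32 in GAS and 18 of 34 in mESC-ser. The maximum signal (the largest number of overlapping fragments in a peak) stood at a median percentile of 80.4 in MT and between 87.9 and 93.6 in the other 6 lists. Within 50 kb on each side of the 5′ end, H3K27me3 covered a median of 23.0 kb (MB) to 50.8 kb (GAS) at the homeobox genes and 0 to 2.90 kb over all protein-coding genes.

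**Figure D3:**
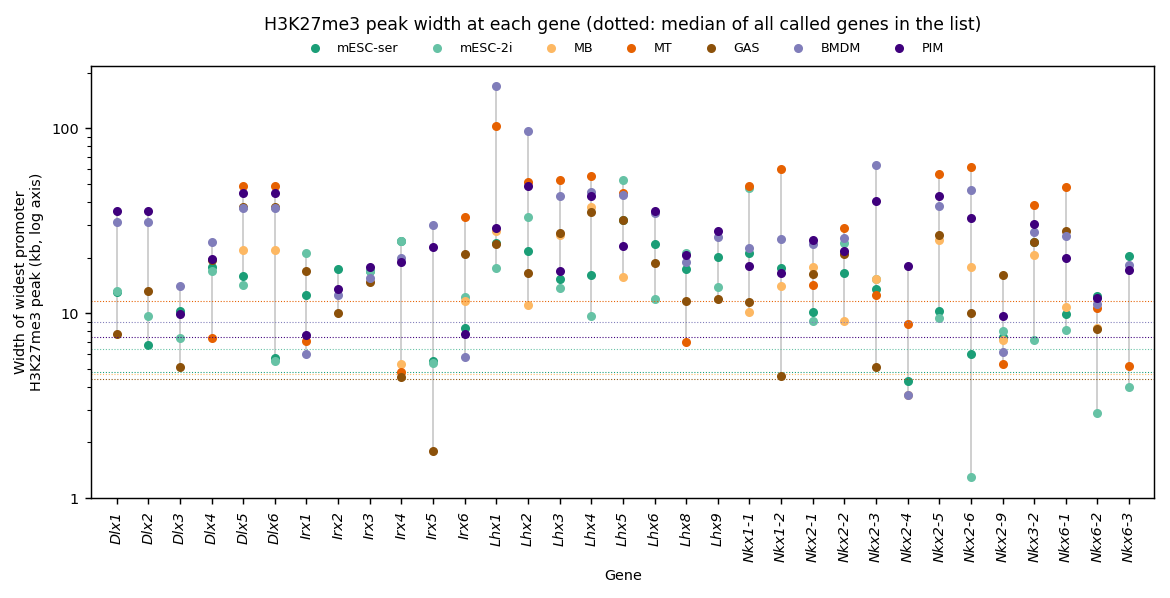
Width in kb (log axis) of the widest promoter H3K27me3 peak of 33 of the 34 genes in each list where it was called. Points are cell types, the grey line joins the lowest and highest value of a gene, and dotted lines mark the median over all called genes of each list. Most points lie above the dotted line of their list, and Lhx1 in BMDM reaches 170.5 kb.

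Dlx5 and Dlx6, which shape the jaws, limbs and bone, were the widest of the Dlx family, each with a median of 37.3 kb over the 7 lists. Their start sites lie 18.8 kb apart on opposite strands of chromosome 6. A single H3K27me3 peak covered both promoters in MB (22.0 kb), MT (49.0 kb), GAS (37.5 kb), BMDM (37.3 kb) and PIM (44.7 kb). In the stem cells the promoters had peaks of their own, of 15.9 kb at Dlx5 and 5.7 kb at Dlx6 in mESC-ser and of 14.2 and 5.5 kb in mESC-2i. Bases called within 50 kb of the 5′ end, over all peaks, gave another order. At Dlx5 they were 53.1 kb in mESC-ser, 32.7 kb in mESC-2i, 45.9 kb in MB and 77.1 kb in MT. GAS had 75.9 kb, BMDM 37.3 kb and PIM 47.4 kb. At Dlx6 the 7 values were 62.1, 35.9, 48.8, 59.9, 73.2, 37.3 and 44.7 kb in the same order. The shared peak stood at width percentile 92.6 in BMDM and 99.8 in GAS. In MB it began 710 bp inside Dlx6 and left the 5′ end of Dlx6 uncovered. In GAS it began 706 bp inside Dlx6, and a separate peak covered the 5′ end.

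Other close pairs were joined less often. Dlx1 and Dlx2, 18.6 kb apart on opposite strands of chromosome 2, lay under 1 peak in BMDM (31.0 kb) and PIM (35.6 kb). They had separate peaks in mESC-ser (13.1 kb at Dlx1 and 6.7 kb at Dlx2), mESC-2i (13.2 and 9.7 kb) and GAS (7.7 and 13.2 kb) and none in MB or MT. By bases called within 50 kb, GAS had the most at both genes, with 49.2 kb at Dlx1 and 58.0 kb at Dlx2. Dlx3 and Dlx4, 26.1 kb apart, and Nkx2-1 and Nkx2-9, 76.4 kb apart, shared none. Calls within a joined pair are not independent of each other.

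Lhx4 and Lhx2 led the Lhx family with medians of 37.5 and 33.1 kb. At Lhx4 the widths were 16.1 kb in mESC-ser, 9.6 kb in mESC-2i, 37.5 kb in MB, 55.2 kb in MT, 35.3 kb in GAS, 45.5 kb in BMDM and 43.1 kb in PIM. Both stem cell widths were below the 5 others, and the width percentile ran from 67.4 in mESC-2i to 99.7 in GAS. At Lhx2, a factor of the eye and hair follicle, they were 21.6, 33.1, 11.1, 51.4, 16.5, 96.3 and 49.0 kb in the same order, so that MB and BMDM were the extremes of width. Lhx1, which acts in head and kidney formation, had the widest peak of any member in any list, 170.5 kb in BMDM, beside 102.7 kb in MT and 17.5 to 28.8 kb in the 5 other lists. The BMDM peak began at -158109 bp from the 5′ end and, like those in mESC-ser, MB, MT and PIM, also covered a promoter of the neighbouring gene Aatf. Lhx3 and Lhx5 had medians of 26.5 and 32.1 kb. Lhx6 measured 23.6 kb in mESC-ser, 12.0 kb in mESC-2i, 18.7 kb in GAS, 34.9 kb in BMDM and 35.9 kb in PIM. With uncalled lists counted as 0, the medians of Lhx6, Lhx8 and Lhx9 were 18.7, 17.4 and 13.9 kb.

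Irx4, a factor of the ventricles of the heart, had the largest median of its family, 19007 bp. Its peaks were 24.7 kb wide in mESC-ser, 24.6 kb in mESC-2i, 19.8 kb in BMDM and 19007 bp in PIM, but 5.3 kb in MB, 4.8 kb in MT and 4.5 kb in GAS. The 3 muscle lists lay below all others by width, at percentiles 56.1, 15.4 and 51.2, and in all 3 the peak began 312 to 376 bp inside the gene and left the 5′ end uncovered. Width takes 1 peak, and the bases called for H3K27me3 within 50 kb of the 5′ end, over all peaks, gave another order at Irx4, with 48.5 kb in mESC-2i, 48.4 kb in GAS, 30.6 kb in mESC-ser, 23.6 kb in PIM, 23.2 kb in BMDM, 22.2 kb in MT and 19.7 kb in MB. The stem cell peaks were at percentile 97.4 in serum and 93.7 in 2i, and their maximum signal of 756 and 493 overlapping fragments stood at percentiles 99.5 and 98.8. Irx3 was nearly constant in width where it was called, at 17.0 kb in mESC-ser, 16.9 kb in mESC-2i, 14.7 kb in GAS, 15.6 kb in BMDM and 17.8 kb in PIM, while the bases called within 50 kb ran from 17.8 kb in PIM to 69.7 kb in mESC-2i. Irx5, which shares a cluster with Irx3 on chromosome 8, had 5.5 kb in mESC-ser, 5.4 kb in mESC-2i, 1.8 kb in GAS, 30.0 kb in BMDM and 22.8 kb in PIM. Its peak was narrow in GAS, at width percentile 4.32, but stood at percentile 98.8 by maximum signal, and the bases called within 50 kb were most in GAS, 56.3 kb against 33.9 kb or fewer in the other 6 lists. Irx1, Irx2 and Irx6 had medians of 7.6, 10.0 and 11.7 kb.

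Nkx2-5 and Nkx3-2 were the widest Nkx genes by median, at 26.5 and 24.4 kb. Nkx2-5 measured 10.3 kb in mESC-ser, 9.4 kb in mESC-2i, 24.9 kb in MB, 56.4 kb in MT, 26.5 kb in GAS, 37.8 kb in BMDM and 43.0 kb in PIM. As at Lhx4, both stem cell values were the lowest. Nkx3-2 measured 24.3, 7.2, 20.6, 38.5, 24.4, 27.4 and 30.5 kb in the same order, with the only value under 20 kb in mESC-2i. The narrowest medians of the family were 3.6 kb at Nkx2-4, 5.2 kb at Nkx6-3, 7.4 kb at Nkx2-9 and 10.7 kb at Nkx6-2. The neural tube and pancreas factor Nkx2-2 measured 16.5 kb in mESC-ser, 24.1 kb in mESC-2i, 9.1 kb in MB, 28.9 kb in MT, 21.0 kb in GAS, 25.4 kb in BMDM and 21.6 kb in PIM. Nkx6-2, a factor of ventral neural progenitors, measured 12.4, 2.9, 8.3, 10.7, 8.2, 11.2 and 12.1 kb in the same order and was narrow in mESC-2i. Nkx6-3 measured 20.4 kb in mESC-ser, 4.0 kb in mESC-2i, 5.2 kb in MT, 18.2 kb in BMDM and 17.1 kb in PIM. Nkx1-2 measured 17.6 kb in mESC-ser, 14.0 kb in MB, 60.4 kb in MT, 4.6 kb in GAS, 25.2 kb in BMDM and 16.5 kb in PIM. Its peaks in mESC-ser and MT also covered the promoter of the neighbouring gene Lhpp, and the MT peak a promoter of Oat as well.

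H3K27me3 extended further downstream of the 5′ end than upstream of it. Most of these genes are shorter than 10 kb, so the point 10 kb downstream mostly lies past the gene. In each Dlx pair the downstream side faces the sister gene. In mESC-ser the bins at the 5′ end were under a peak at 99.6% of the genes, those 10 kb upstream at 38.9% and those 10 kb downstream at 64.1%. The same order was seen in mESC-2i (27.5% upstream and 62.8% downstream), MB (21.1 and 43.2%), MT (47.1 and 54.6%), GAS (66.8 and 78.1%), BMDM (32.4 and 79.4%) and PIM (38.9 and 72.5%). Over all protein-coding genes the values 10 kb upstream and downstream were close. The downstream value was the higher in mESC-ser (5.94 and 6.39%) and mESC-2i (7.17 and 8.57%), and the upstream value in the other 5 lists, from 4.33 and 3.94% in MB to 13.1 and 10.4% in MT. Coverage dipped at the start in GAS, to 72.8% beside a maximum of 90.1% located 4500 bp downstream, and was also below a maximum located 1500 bp downstream in MB (48.1 and 61.8%) and MT (63.4 and 69.3%), and in PIM, where the maximum was 100%. Over all genes the start was below the maximum in these lists too. The values were 12.1 and 14.0% in GAS, 6.88 and 8.05% in MB, 12.8 and 14.2% in MT and 19.4 and 19.7% in PIM. In GAS 24 of the 32 called genes had their 5′ end under a peak, in MB 17 of 22, in MT 21 of 26, in PIM 31 of 34, in BMDM 33 of 34, in mESC-2i 30 of 31 and in mESC-ser 34 of 34. The GAS list had low in-peak coverage (the lowest peak maximum was 7), and its part in the dip was not tested.

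**Figure D4:**
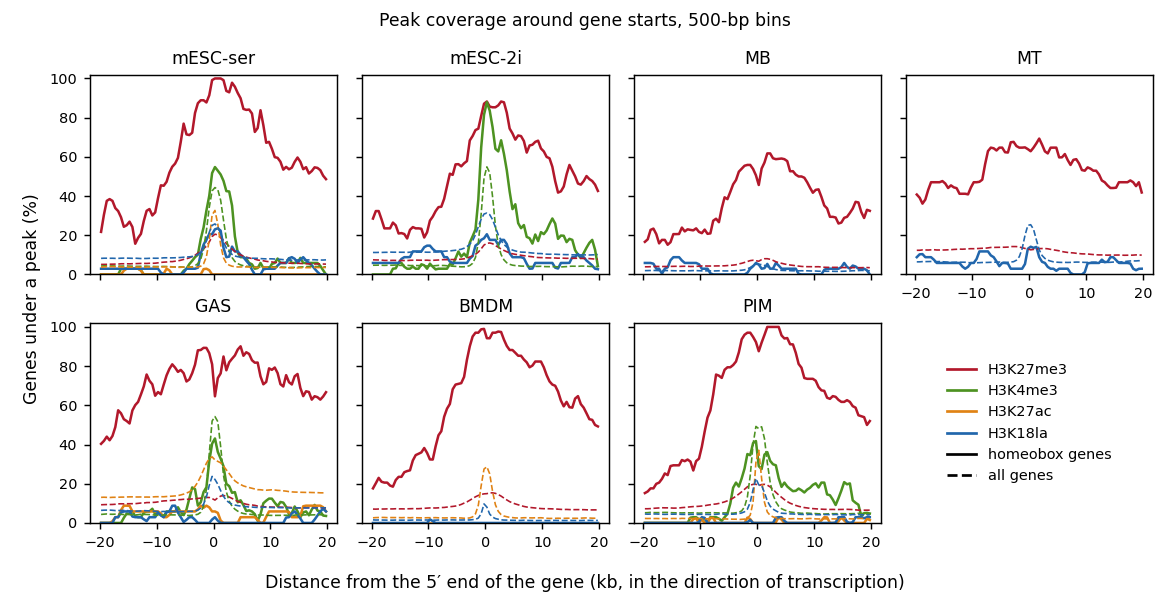
Percentage of genes under a peak in 500-bp bins from 20 kb before to 20 kb after the 5′ end, in the 7 cell types with H3K27me3. Colours are marks, solid lines the 34 homeobox genes and dashed lines all protein-coding genes. The H3K27me3 line of the homeobox genes (red, solid) is highest within 5 kb of the start, dips at the start in GAS, reaches 100% in mESC-ser and PIM and falls off more slowly downstream than upstream.

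Related cell states were compared at the genes called in both lists. Between the stem cell media, the median log2 ratio of widths (mESC-ser over mESC-2i) was 0.04 over 31 genes, with 19 wider in serum and 12 wider in 2i, and -0.10 over 4018 protein-coding genes, of which 43.3% were wider in serum. Single genes moved in both directions. Peaks were wider in serum at Nkx6-3 (20.4 against 4.0 kb, the serum peak also covering a promoter of Ank1), Nkx2-6 (6.0 against 1.3 kb), Nkx6-2 (12.4 against 2.9 kb) and Nkx3-2 (24.3 against 7.2 kb). They were wider in 2i at Nkx1-1 (47.7 against 21.1 kb), Irx1 (21.3 against 12.5 kb) and Lhx5 (52.8 against 31.9 kb). By bases called within 50 kb 3 of these 7 genes went the other way, with 31.3 kb in serum and 49.3 kb in 2i at Nkx6-3, 20.4 and 24.0 kb at Nkx2-6 and 27.8 and 23.7 kb at Irx1.

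Widths were larger in MT than in MB, with a median log2 ratio of 1.22 over 22 genes and 18 of them wider in MT. Over 2544 protein-coding genes the median was 1.63 and 95.8% were wider in MT, and the MT list covered 173 Mb against 54.8 Mb in MB. Nkx1-1 (48.8 against 10.1 kb), Lhx2 (51.4 against 11.1 kb), Nkx6-1 (48.4 against 10.8 kb) and Nkx1-2 (60.4 against 14.0 kb) had the largest ratios. Nkx2-9, Nkx2-1, Nkx2-3 and Irx4 were the 4 genes that were narrower in MT, with log2 ratios of -0.43 to -0.14, but by bases called within 50 kb Nkx2-3 (49.6 against 34.9 kb) and Irx4 (22.2 against 19.7 kb) had more in MT. Muscle tissue against myotubes gave a median of -0.65 over 24 genes (-1.19 over all), with GAS wider at Nkx2-9 (16.1 against 5.3 kb), Dlx4 (19.5 against 7.3 kb), Irx1 (16.9 against 7.1 kb), Lhx8 (11.6 against 7.0 kb) and Nkx2-1 (16.3 against 14.2 kb). The bases called within 50 kb, taken over all 34 genes, did not have this order, with medians of 50.8 kb in GAS and 49.0 kb in MT (2.90 and 0.156 kb over all genes). PIM against BMDM gave a median of -0.01 over 34 genes (0.01 over all), with 17 genes wider in each. The extremes were Lhx1 (28.8 kb in PIM, 170.5 kb in BMDM) and Nkx2-4 (17.9 and 3.6 kb).

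**Figure D5:**
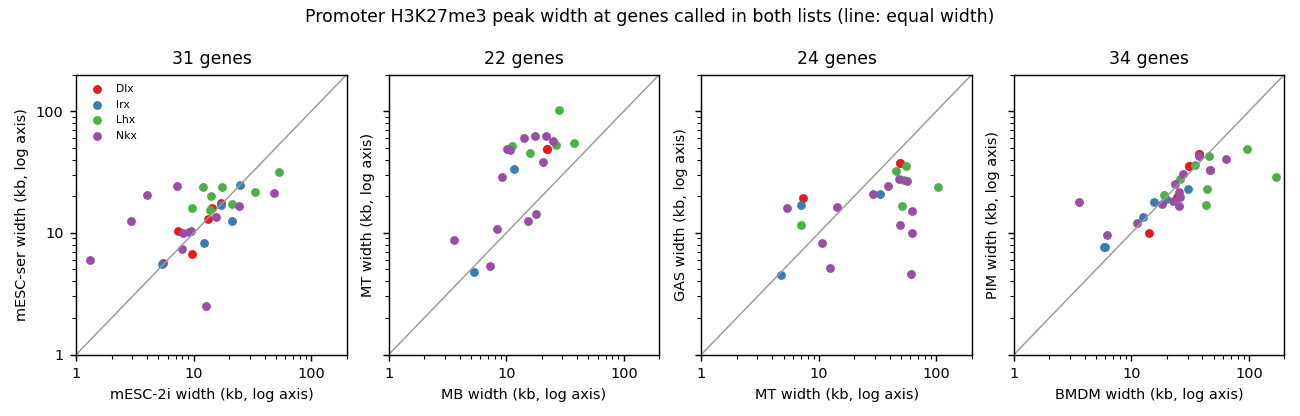
Width in kb of the widest promoter H3K27me3 peak in 2 related cell types (log axes), for the genes called in both, with points coloured by family and a line of equal width. Of 22 genes, 18 lie above the line for MT against MB, 19 of 31 for mESC-ser against mESC-2i, 5 of 24 for GAS against MT and 17 of 34 for PIM against BMDM.

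H3K4me3 was called at 97 of 136 possible places, 71.3%, beside a mean of 58.5% over all genes. Beside genes with a CpG-rich promoter, of which 63.3% were called in mESC-ser, 79.7% in mESC-2i, 81.1% in GAS and 74.7% in PIM, the homeobox genes were higher in mESC-2i (97.1%) and lower in the other 3 lists (61.8, 70.6 and 55.9%). It was found at 33 of the 34 genes in mESC-2i (61.8% of all genes), at 24 in GAS (64.2%), at 21 in mESC-ser (48.8%) and at 19 in PIM (59.4%). In GAS and PIM these shares were near or below those of all genes. Among the 12 genes called in 2i and not in serum were Dlx5, Dlx6, Irx1, Irx4, Lhx2, Lhx3, Nkx2-2, Nkx2-3, Nkx2-4, Nkx2-5 and Nkx6-3, and no gene was called in serum alone. Over all genes, 13.6% were called in 2i and not in serum and 0.561% in serum and not in 2i. The serum list held fewer peaks (11002) than the 2i list (19362), and its lowest maximum signal was 63 against 22. Nkx2-6, a factor of the pharyngeal pouches, had no H3K4me3 in any of the 4 lists.

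H3K4me3 calls were set beside H3K27me3 calls at the same promoters. Since all 34 genes carried H3K27me3 in mESC-ser and PIM and nearly all did in mESC-2i and GAS, the counts with both marks follow from the H3K27me3 calls and are no separate result. Both marks were called at 21 of 21 H3K4me3 promoters in mESC-ser (both at 12.8% of all genes), at 30 of 33 in mESC-2i (14.2%), at 24 of 24 in GAS (12.1%) and at 19 of 19 in PIM (14.5%). Among all genes with H3K4me3, H3K27me3 was called at 26.2, 23.0, 18.8 and 24.4% in the same lists. In each of these 94 cases the peaks shared bases. In mESC-ser and PIM the larger part of every H3K4me3 peak lay inside H3K27me3. The 3 exceptions, Irx2, Nkx1-2 and Nkx2-4 in mESC-2i, carried H3K4me3 alone. The lists come from cell populations, and both marks on the same chromosome cannot be told apart from each on a part of the cells.

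H3K4me3 peaks at these genes were low in mESC-ser, GAS and PIM and close to the middle in mESC-2i, and they were wider than the median called gene in all lists but GAS. Their median maximum signal stood at percentile 21.1 among called genes in mESC-ser, 47.1 in mESC-2i, 9.52 in GAS and 14.4 in PIM, while their median width stood at 78.9, 85.7, 37.5 and 84.3. Irx5 departed from this, at percentile 99.2 of maximum signal in mESC-ser, 98.0 in mESC-2i, 98.5 in GAS and 99.2 in PIM. Irx3 followed in the first 3 of these lists, at 90.6, 96.0 and 77.4. At Lhx1 the peak was broad and low, 12.6 kb at maximum percentile 27.2 in mESC-2i and 9.3 kb at percentile 22.8 in PIM.

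H3K27ac was rare at these promoters. Of 170 possible calls 6 were made, 3.53%, beside a mean of 43.2% over all genes. They fell on 1 gene in mESC-ser (40.2% of all genes), 4 in GAS (47.0%), 0 in BMDM (34.0%), 1 in PIM (48.8%) and 0 in ADIPO (46.1%). Irx5 accounted for 3 of the 6, in mESC-ser, GAS and PIM. In each the peak was 0.8 to 1.3 kb wide and lay wholly upstream, between -1962 and -630 bp from the 5′ end. The others were in GAS, at Irx3 (3.5 kb, over the 5′ end, maximum signal at percentile 90.9), at Nkx1-2 (5.9 kb, ending 1834 bp before the 5′ end) and at Nkx6-3. The Nkx6-3 peak was 17.7 kb wide and reached from -16502 to 1210 bp from the 5′ end of the gene. It also covered a promoter of the neighbouring gene Ank1, an ankyrin of red cells and muscle, and Nkx6-3 had no H3K27me3 call in GAS. All the other H3K27ac calls lay on promoters called for H3K27me3 in the same cell type, where nearly all of these genes were.

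H3K18la was called at 31 of 272 possible places, 11.4%, beside a mean of 31.8% over all genes. The calls were at 11 genes in mESC-ser (33.4% of all genes), 9 in mESC-2i (37.8%), 3 in MB (11.1%), 6 in MT (34.8%), 1 in GAS (36.1%), 0 in BMDM (18.5%), 1 in PIM (37.8%) and 0 in ADIPO (44.7%). In mESC-ser and MB the percentages of homeobox genes, 32.4 and 8.82%, were near those of all genes and below the 42.1 and 13.4% of genes with a CpG-rich promoter. In the 5 cell types with both profiles, H3K18la and H3K27ac were called at 11 and 1 genes in mESC-ser, 1 and 4 in GAS, 1 and 1 in PIM and 0 and 0 in BMDM and ADIPO, so the order of the marks differed between mESC-ser and GAS. Of the 34 genes, 15 had H3K18la in at least 1 list (69.7% of all genes), among them the 4 with H3K27ac (64.6%). Among the 19 genes with neither mark in any list (27.2% of all genes) were Dlx5, Dlx6, Irx1, Irx4, Irx6, Lhx1 to Lhx4, Lhx9, Nkx1-1, Nkx2-1, Nkx2-3, Nkx2-4, Nkx2-5, Nkx2-6, Nkx3-2 and Nkx6-1.

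In the stem cells, 8 genes had H3K18la in both media (28.6% of all genes): Dlx1, Irx3, Irx5, Lhx6, Nkx1-2, Nkx2-2, Nkx6-2 and Nkx6-3. Dlx3, Lhx5 and Nkx2-9 were called in serum alone (4.79%) and Irx2 in 2i alone (9.19%). With H3K27me3 at all 34 promoters in serum, the 11 serum calls could only fall on promoters with it. Of all genes with H3K27me3 in serum, 30.7% had H3K18la (both marks at 8.31% of all genes). Each of the 11 peaks shared most of its bases with the H3K27me3 peak. The peaks were low, with a median maximum signal at percentile 6.59 among called genes in serum and 27.6 in 2i. In 2i, 7 of the 9 lay on the 31 promoters with H3K27me3, where 21.4% of all such genes had H3K18la (both at 4.82% of all genes). The other 2, Irx2 and Nkx1-2, were among the 3 promoters without H3K27me3 there, where 42.6% of all such genes had H3K18la. At Nkx1-2 the H3K18la peak was 3.6 kb wide at maximum percentile 1.35 in serum, and 25.5 kb wide at percentile 65.9 in 2i, where it also covered the promoter of Lhpp. Nkx6-3 went from 1.9 kb at percentile 17.4 in serum to 18.9 kb at percentile 99.2 in 2i, and Nkx6-2 from 12.1 kb at 6.59 to 21.8 kb at 72.4. The H3K27me3 peak was narrower in 2i at both, as given above, but by bases called within 50 kb Nkx6-3 had more H3K27me3 in 2i. Lhx6, a factor of cortical interneurons, was called by peaks that began 13097 bp inside the gene in serum and 12981 bp inside in 2i, near an internal start site that neither peak covered.

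In the muscle cultures, promoters with H3K18la rarely carried H3K27me3 over all genes, at 3.51% in MB and 9.02% in MT. Of the homeobox genes with H3K18la, 0 of 3 in MB and 2 of 6 in MT (33.3%) carried both. In MB all 3, Dlx1, Dlx2 and Irx5, were among the 12 promoters without H3K27me3, where 12.3% of all such genes had H3K18la. Of the 22 promoters with H3K27me3, 0 had H3K18la, beside 3.11% of all genes with H3K27me3 (both marks at 0.391% of all genes). In MT, Dlx1, Dlx2, Irx3 and Irx5 were among the 8 promoters without H3K27me3, where 39.6% of all such genes had H3K18la. Dlx4 and Lhx8 were among the 26 promoters with H3K27me3, where 15.6% of all such genes had H3K18la (both marks at 3.14% of all genes). At Irx5 the MT peak was 5.6 kb wide with a maximum signal at percentile 88.0, beside 2.0 kb and percentile 21.6 in MB. Dlx2 measured 5.0 kb at percentile 64.0 in MT and 2.6 kb at 26.5 in MB, and Dlx1 2.5 kb at 70.1 in MT and 2.3 kb at 21.6 in MB. At Irx3 the MT peak was 2.0 kb wide, over the 5′ end, at percentile 66.3. H3K4me3 and H3K27ac were not profiled in MB or MT.

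In tissue and macrophages, H3K18la was left at 2 genes. Irx3 in GAS had a peak of 1.0 kb over its 5′ end, on a promoter with H3K27me3 (both at 4.56% of all genes) and with H3K27ac. Irx5 in PIM had a peak of 0.3 kb, which lay at -1571 to -1251 bp from the 5′ end and covered no start site, also beside H3K27me3 (both at 6.52% of all genes). In BMDM no promoter carried both (1.24% of all genes). Irx5 had the most H3K18la calls of the 34 genes, in 5 of 8 lists, and with its 3 H3K27ac calls it carried one of these marks in every cell type profiled other than BMDM and ADIPO. The antisense transcripts that overlap Dlx1, Dlx6, Lhx1 and Nkx2-2 cannot be told apart from the genes by CUT&Tag, which gives no strand.

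The 39 Hox cluster genes, chosen by name in the same way, were set beside the 34 dispersed genes. H3K27me3 was called at 217 of 273 possible places at Hox genes and 213 of 238 at the dispersed genes, H3K27ac at 38 of 195 and 6 of 170, and H3K18la at 73 of 312 and 31 of 272. In ADIPO, H3K18la was called at 18 Hox genes and 0 dispersed genes, and in GAS at 18 and 1. Of all genes, 44.7% were called for H3K18la in ADIPO and 36.1% in GAS. In mESC-ser the order was the other way, with 4 Hox and 11 dispersed genes (33.4% of all genes). The median width of the H3K27me3 peak was larger at Hox genes in mESC-ser (28.9 against 15.6 kb), mESC-2i (15.3 against 12.8 kb), MB (29.0 against 15.6 kb), BMDM (75.8 against 25.9 kb) and PIM (54.6 against 22.2 kb), equal in MT (41.7 kb) and smaller in GAS (10.4 against 16.2 kb). By the median of bases called within 50 kb, over all genes of each set, GAS turned (63.6 kb at Hox and 50.8 kb at dispersed genes), MB turned (20.9 and 23.0 kb) and MT was lower at Hox genes (45.8 and 49.0 kb). Hox genes of a cluster share peaks, and their counts are not independent.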

How the data were processed

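CUT&Tag peak lists of 24 groups were used, 1 per cell type and mark. According to the study's methods, with versions from the submitters' processing notes, the authors checked and trimmed reads (FastQC, for which the sources give different versions, and Trim Galore 0.6.6), aligned them to mm10 with Bowtie2 2.4.4, made coverage with SAMtools 1.13 and bedtools 2.30, pooled the replicates of a group and called peaks with SEACR 1.3 in stringent mode at the top 1% of regions. How duplicates were treated is not given in the sources used here. Each deposited list holds, per peak, its position, the total signal and the maximum signal that the authors' SEACR run wrote as its scores, which are in-peak coverage in whole numbers that are not scaled for depth, so signal was compared only as a percentile within a list. The lists do not hold the depth of the libraries. The study's supplement gives reads per sample, which were not used here, and no interval or test was computed. The stem cell H3K27me3 and H3K4me3 lists that name no medium were taken as serum. This was inferred, since the 2i lists name their medium and GEO's descriptions of the serum samples give list names that differ from these only by the added medium.

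Transcription start sites came from GENCODE release M21 (mm10, 101317 transcripts of 21755 protein-coding genes). A gene's width and signal are those of its widest peak overlapping the 4-kb promoter window, and a percentile is its rank among all called genes of the list. Overlaps were computed in Python 3.11.15 (numpy 2.4.6, pandas 2.3.3, scipy 1.17.1, matplotlib 3.10.9) and tested on simulated data against bedtools 2.31.1. The genes of the symbol rule were named, except 1 whose own values are not reported here and which is included in the counts and medians. Widths in each H3K27me3 list were given for the 2 widest genes per family by median and for genes with H3K27ac or H3K18la in at least 2 cell types, while their total signal, which the rule also listed, is not given because it is not comparable between lists. Relatives, partners, Polycomb genes, Hox genes and cell type markers were fixed lists. The members and lists were chosen with earlier results of these data known. The alternatives were other promoter windows, start site sets, overlaps, stricter peak lists and width measures.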

Additional observations from a re-analysis of the deposited data

How the results depend on the processing

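A count or width was taken as moved when it changed by more than 1.5 times, and a median log2 ratio when the ratio it stands for did, by which 69 values stayed, 13 moved and 1 turned its direction, and of those chosen after seeing the data 4 stayed and 1 moved. Over the 7 lists, H3K27me3 calls stayed between 199 and 213 of 238 under the alternatives run and genes called in all 7 between 15 and 20, and the log2 ratio of MT over MB stayed between 0.80 and 1.39. Without the MB list, 191 of 204 calls were made over the other 6 lists and 23 genes were called in all 6, and the median width was 19.2 kb. With the 10000 peaks of largest total signal per list, H3K4me3 calls went from 97 to 63, H3K27ac from 6 to 3, H3K18la from 31 to 10, H3K4me3 with H3K27me3 from 94 to 58 and H3K18la with H3K27me3 from 22 to 2. With 5000 peaks these were 40, 1, 4, 35 and 1. The percentages over all genes also dropped, to 24.9% for H3K4me3, 16.1% for H3K27ac and 8.38% for H3K18la at 5000 peaks, since fewer peaks were used. H3K27ac calls were 2 with a window of 500 bp on each side, and 2 where the peak had to cover a start site, a setting chosen after seeing the data. The median H3K27me3 width of 16.2 kb became 33.0 kb as bases called within 50 kb of the 5′ end and 25.5 kb with peaks within 1000 bp joined (1.09 and 6.85 kb over all genes). With 10000 peaks per list it was 16.3 kb, beside 8.27 kb over all called genes. With 5000 peaks it was 16.4 kb, beside 10.4 kb. The log2 ratio of mESC-ser over mESC-2i turned from 0.04 to -0.08 with the bases called within 50 kb (-0.30 over all genes), and the cause was not tested. It was 0.22 with peaks within 1000 bp joined and 0.02 to 0.04 under the other alternatives. No paired analysis was possible because the replicates had been pooled into 1 list per group before deposition. For the same reason no replicate could be left out. The part of sequencing depth in differences between lists was not tested.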

Other observations

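Among 30 homeobox genes related to the Lhx and Nkx families, such as Isl1, Lmx1a, Msx1 and En1, H3K27me3 was called at 197 of 210 possible places, H3K4me3 at 81 of 120, H3K27ac at 6 of 150 and H3K18la at 21 of 240. Set beside them, the 34 Dlx, Lhx, Irx and Nkx genes had 213 of 238, 97 of 136, 6 of 170 and 31 of 272. The 14 partners, among them Ldb1, which bridges LIM-homeodomain factors, and the Tle corepressors, had H3K27me3 at 30 of 98 places, H3K4me3 at 48 of 56, H3K27ac at 45 of 70 and H3K18la at 63 of 112. At 17 genes for Polycomb subunits and H3K27 demethylases, such as Ezh2, Suz12 and Kdm6a, these were 20 of 119, 66 of 68, 64 of 85 and 67 of 136. Over all genes the mean shares called were 21.7% for H3K27me3, 58.5% for H3K4me3, 43.2% for H3K27ac and 31.8% for H3K18la.

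Among marker genes of cell types that a sample could also hold, promoter H3K18la was called over the 8 lists at 12 of 32 places for endothelium, 12 of 32 for fibroblasts, 10 of 24 for T cells, 4 of 24 for neutrophils and 5 of 24 for Schwann cells, beside a mean of 31.8% over all genes. Of the 3 T cell markers, 2 were called in each of mESC-2i, BMDM and PIM. The stem cell, muscle, macrophage and adipocyte markers had 12 of 48, 19 of 56, 24 of 56 and 14 of 48.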
